A study of Mus musculus with 6 samples.

Results

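Globin transcripts were examined in RNA from the anterior dorsal pericardial wall and outflow tract of mouse embryos, a dissection that also takes in the blood held by the heart and vessels. The genes are 9 of the 25888 in the deposited table, taken by symbol: the embryonic globins Hbb-bh1, Hbb-y and Hba-x, the adult globins Hba-a1, Hba-a2, Hbb-bt and Hbb-bs, and the red cell genes Alas2 and Slc4a1. All 9 reached the mean of 1 FPKM (fragments per kilobase of gene, scaled to the size of the library) required for testing, so none was lost to the filter. The 3 control libraries are labelled only as control, and the 3 mutant libraries carry floxed Hand2 alleles on both chromosomes and Mef2c-AHF-Cre, a Cre transgene driven by the Mef2c enhancer of the anterior heart field. All 6 are C57BL/6, from embryonic day 9.5, and each library is from pooled tissue (the count of embryos per pool is not stated). Nothing in the labels says whether the controls carry Cre or a floxed allele, or whether the pools of a group came from separate litters, so p-values measure the spread between these libraries only.

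Hemoglobin is a tetramer of alpha-like and beta-like globin chains that each hold a heme. The first red cells of the mouse embryo arise in the yolk sac, circulate with their nuclei once the heart beats, and carry embryonic hemoglobins built from zeta-globin (Hba-x), beta-H1 globin (Hbb-bh1) and epsilon-y globin (Hbb-y) together with alpha-globin (Hba-a1 and Hba-a2). As these cells mature, Hbb-bh1 gives way to Hbb-y and Hba-x to the alpha-globins, while the adult beta-globins Hbb-bt and Hbb-bs become prominent with the definitive red cells of the fetal liver. Alas2 encodes the erythroid aminolevulinate synthase, which starts heme synthesis, and Slc4a1 the anion exchanger of the red cell membrane.

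The libraries held 23225689 to 30183265 reads recovered from the FPKM values. As a check of the labels, Hand2 had 116, 64.3 and 81.7 FPKM in controls 1, 2 and 3, and 34.6, 22.2 and 17.9 in mutants 1, 2 and 3, every mutant lying below every control. The heart genes Tnnt2 (78.9 to 211 FPKM) and Actc1 (1143 to 2937) and the heart field genes Isl1 (14.6 to 21.4) and Tbx1 (50.8 to 149) were present in every library. The libraries numbered 1 stood apart in both groups, with FPKM sums of 417592 in the control and 377157 in the mutant against 314462 to 328574 in the other 4. In those libraries 7.15% and 6.82% of the reads came from cytosolic ribosomal protein genes, against 4.56% to 5.13% in the rest. Control library 3 held 725 summed FPKM of 14 yolk sac and liver endoderm genes, against 5.94 to 10.5 in the other 5 libraries. Apoa1, an apolipoprotein gene of that endoderm, was at 189 FPKM there and at most 1.60 elsewhere.

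Before the values, the sequences just before the RefSeq transcript starts are shown, because the proximal promoters of globin genes are known to carry elements in common, which a reader can compare by eye. RefSeq tables for GRCm38.p6 held promoters of 7 of the 9 genes, with Hbb-bh1 and Slc4a1 unmatched. Each line gives, on the strand of the gene, the 150 bases just before the transcript start in the RefSeq table. That start differs from the end of the gene span in GENCODE M21, which is the span given with each gene's levels. The stretches of Hba-x, Hba-a1 and Hbb-bs lie inside those spans, and the others straddle the edge. Capitals mark every match, on either strand, to 4 motifs. These are CACCC for the box read by Krüppel-like factors, CCAAT for the box of that name, TATAA for the TATA box, and GATAA for the core of a site read by GATA factors. No match overlaps another.
Hbb-y: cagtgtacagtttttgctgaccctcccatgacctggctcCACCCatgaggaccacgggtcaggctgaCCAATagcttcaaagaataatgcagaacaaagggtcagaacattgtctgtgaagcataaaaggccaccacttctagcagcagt
Hba-x: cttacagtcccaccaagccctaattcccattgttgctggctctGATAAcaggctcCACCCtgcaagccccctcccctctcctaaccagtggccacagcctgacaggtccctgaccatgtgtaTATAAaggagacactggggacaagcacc
Hba-a1: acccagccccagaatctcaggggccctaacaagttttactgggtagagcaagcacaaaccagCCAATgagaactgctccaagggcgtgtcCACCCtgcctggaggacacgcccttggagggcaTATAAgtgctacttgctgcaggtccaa
Hbb-bs: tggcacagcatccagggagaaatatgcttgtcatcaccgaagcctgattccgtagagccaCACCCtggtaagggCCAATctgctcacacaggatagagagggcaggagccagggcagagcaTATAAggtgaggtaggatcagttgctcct
Hbb-bt: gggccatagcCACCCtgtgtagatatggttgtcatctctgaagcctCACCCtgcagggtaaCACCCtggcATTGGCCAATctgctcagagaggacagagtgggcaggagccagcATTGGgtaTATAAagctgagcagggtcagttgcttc
Alas2: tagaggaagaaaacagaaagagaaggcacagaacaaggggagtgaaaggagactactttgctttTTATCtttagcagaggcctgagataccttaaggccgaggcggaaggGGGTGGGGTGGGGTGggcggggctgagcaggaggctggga

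These stretches lie at chr7:103853208-103853357 for Hbb-y, chr7:103827929-103828078 for Hbb-bs and chr7:103813924-103814073 for Hbb-bt, all on the minus strand. They lie at chr11:32276450-32276599 for Hba-x, chr11:32283522-32283671 for Hba-a1 and chrX:150547267-150547416 for Alas2, all on the plus strand. CACCC was found in all 7 promoters, 6 of them on the strand of the gene, and in 37.4% of 32851 RefSeq promoter stretches of the same length on either strand. CCAAT was found in 5 of 7 and in 24.5% of all stretches, TATAA in 5 of 7 and in 14.2%, and GATAA in 2 of 7 and in 13.3%. Hba-a1, Hba-a2, Hbb-bs and Hbb-bt, the 4 adult globins, each held the first 3 of these motifs on the strand of the gene, as did 84 of all stretches (0.256%). In Hba-x no CCAAT was found, and in Hbb-y no TATAA was found. A match is a run of letters in this window and not a measured site.

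The promoter of Hba-a2 was not printed, since 247 of 247 bases before its RefSeq start equalled those of Hba-a1 when shifted by 3 bases. The transcripts of the pair are near copies too. Of the 100-base windows of GENCODE M21 transcripts of Hba-a2, 79.5% also occur in Hba-a1, and 63.3% of those of Hba-a1 occur in Hba-a2. Between Hbb-bs and Hbb-bt the shares were 49.7% and 54.8%. The sources used here do not say how reads matching both copies were counted, so the levels within each pair are uncertain, while the sum of a pair depends less on the split. Hbb-bh1, Hbb-y, Hba-x and Slc4a1 shared no such window with another gene, and Alas2 shared 8.88% of its windows with Apex2, counting either strand.

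The embryonic globins were among the most abundant transcripts of the dissected tissue. On GRCm38, Hbb-y (ENSMUSG00000052187) lies on chromosome 7 from 103851749 to 103853216 on the minus strand. It had 2601, 1127 and 1788 FPKM in controls 1, 2 and 3, and 1649, 1041 and 1163 in mutants 1, 2 and 3. Control 1 was the highest library and mutant 2 the lowest, and the groups overlapped, with mutant 1 and mutant 3 above control 2. By its mean over the 6 libraries it ranked 17 of all 25888 genes.

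Hba-x (ENSMUSG00000055609; chromosome 11 from 32276400 to 32278116, plus strand), the zeta-globin gene, was at 2504, 980 and 1622 FPKM in controls and at 1686, 1139 and 1258 in mutants. Hbb-bh1 (ENSMUSG00000052217; chromosome 7 from 103841637 to 103843164, minus strand) was at 1981, 907 and 1421 FPKM in controls and at 1189, 934 and 994 in mutants. For both genes control 1 was highest and control 2 lowest, so that the control group alone spanned the whole range of the mutants. They ranked 18 and 28 of all genes by mean FPKM.

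Of the adult globins only Hba-a1 was at a level near these. Hba-a1 (ENSMUSG00000069919; chromosome 11 from 32283511 to 32284465, plus strand) was at 832, 304 and 501 FPKM in controls and at 522, 345 and 330 in mutants. Its near copy Hba-a2 (ENSMUSG00000069917; chromosome 11 from 32296489 to 32297298, plus strand) was at 29.3, 13.2 and 20.1 FPKM in controls and at 24.8, 13.1 and 19.1 in mutants. Control 1 was again the highest library for both.

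The adult beta-globins were low in every library. Hbb-bs (ENSMUSG00000052305; chromosome 7 from 103826534 to 103828096, minus strand) was at 18.4, 8.47 and 13.8 FPKM in controls and at 12.6, 7.37 and 14.1 in mutants. Hbb-bt (ENSMUSG00000073940; chromosome 7 from 103812524 to 103813996, minus strand) was at 2.87, 1.33 and 2.01 FPKM in controls and at 2.35, 1.06 and 1.04 in mutants. These values rest on few reads, 170 to 370 per library for Hbb-bs and 20 to 47 for Hbb-bt, whereas Hbb-y had 18376 to 40012. Counting error is therefore relatively largest for Hbb-bt.

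Alas2 (ENSMUSG00000025270; chromosome X from 150547375 to 150570638, plus strand) was at 13.9, 7.78 and 12.9 FPKM in controls and at 11.1, 9.33 and 10.3 in mutants. Slc4a1 (ENSMUSG00000006574; chromosome 11 from 102348824 to 102366203, minus strand) was at 24.0, 13.7 and 26.3 FPKM in controls and at 16.5, 15.3 and 20.95 in mutants. In both genes control 2 was the lowest library and every mutant lay within the range of the controls.

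**Figure D1:**
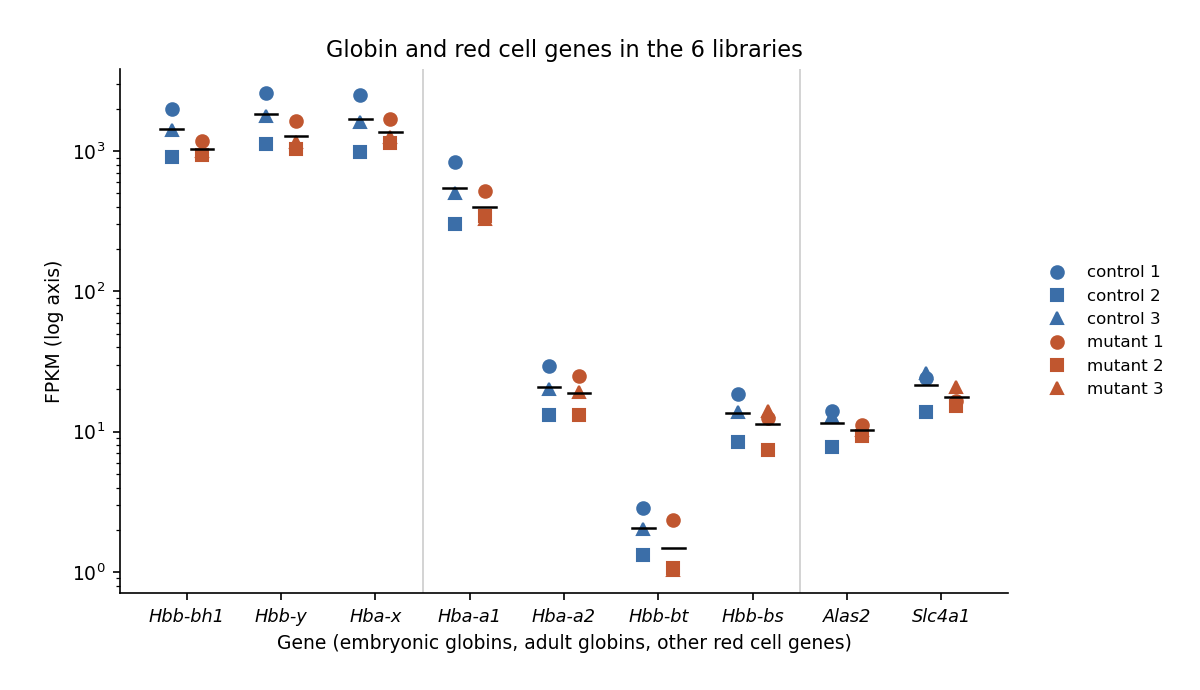
FPKM (log axis) of the 9 genes in each library, with circles, squares and triangles for replicate numbers 1, 2 and 3, blue for controls, orange for mutants and a black bar for each group mean. The embryonic globins lie at 907 to 2601 FPKM and the adult beta-globins at 1.04 to 18.4, and in all 9 genes the groups overlap.

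The order of the levels was therefore Hbb-y and Hba-x at the top (means of 1561 and 1532 FPKM over the 6 libraries), Hbb-bh1 at 1238, Hba-a1 at 472, and a long step down to Hba-a2 at 19.9, Slc4a1 at 19.5, Hbb-bs at 12.5, Alas2 at 10.9 and Hbb-bt at 1.78. The order of Hbb-y and Hba-x by FPKM was not the same in the groups, with Hbb-y the higher in all 3 controls and Hba-x in all 3 mutants. Hbb-bh1 lay below Hba-x in every library (0.705 to 0.926 times its level). Hba-a2 and Slc4a1, and likewise Hbb-bs and Alas2, also changed places between libraries. FPKM is scaled by gene length, so this order depends on the lengths used (661 bases for Hbb-y and 938 for Hba-x). By recovered reads, not scaled by length, Hbb-y was 0.644 to 0.810 times Hba-x over the 6 libraries. The places of Hba-a1 and Hba-a2, and of Hbb-bs and Hbb-bt, also rest on the uncertain split of reads within each pair.

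Mutant and control means of each gene differed by less than the spread between libraries. Hbb-y averaged 1839 ± 739 FPKM among controls and 1284 ± 322 among mutants (SD with n = 3 per group, as for the values that follow). Its log2 fold change was -0.46 (SE 0.36, 95% interval -1.32 to 0.39, limma adjusted p = 0.966). Hbb-bh1 had 1436 ± 537 and 1039 ± 133 FPKM (log2 fold change -0.40, SE 0.32) and Hba-x 1702 ± 765 and 1361 ± 288 (-0.24, SE 0.38). Hba-a1 had 546 ± 267 and 399 ± 107 FPKM (log2 fold change -0.36, SE 0.38), and Hba-a2 20.8 ± 8.04 and 19.0 ± 5.83 (-0.10, SE 0.31). Hbb-bs had 13.6 ± 4.98 and 11.4 ± 3.52 (log2 fold change -0.22, SE 0.31) and Hbb-bt 2.07 ± 0.77 and 1.49 ± 0.75 (-0.31, SE 0.25). Alas2 had 11.5 ± 3.29 and 10.2 ± 0.90 (log2 fold change -0.12, SE 0.20) and Slc4a1 21.4 ± 6.69 and 17.6 ± 2.98 (-0.23, SE 0.24). In bulk tissue, fewer red cells in a pool and less RNA per red cell cannot be told apart.

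None of the 9 genes passed an adjusted p of 0.05 by limma on log2(FPKM + 1), where 0.174% of the 12650 genes tested passed (0.15% lower and 0.0237% higher). None had an unadjusted p under 0.05 either, against 6.92% of all genes (4.32% lower). The adjusted p of the 9 genes ranged from 0.966 to 1.00. The 95% intervals reached from -1.32 for Hbb-y to 0.65 for Hba-x, so a mutant level of 0.401 times the control lay within the interval of Hbb-y and of 1.57 times within that of Hba-x. The groups overlapped in all 9 genes, whereas they did not overlap for 12.3% of all genes tested (6.85% with mutants lower). All 9 log2 fold changes were below 0, as were 52.1% of all genes, and the median of the 9 was -0.24 against -0.01 over all genes. The 9 genes share the red cells of each pool, so their common direction is not 9 separate observations.

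Leaving out 1 library at a time turned the direction in 4 of the 9 genes. Without control replicate 1, the highest library for 8 of the 9 genes and for 30.4% of all genes tested, the log2 fold changes of Hba-x, Hba-a2, Hbb-bs and Alas2 turned positive, to 0.09, 0.17, 0.02 and 0.02, that of Hba-a1 came to -0.00033 and that of Hbb-y to -0.17. Without control replicate 2, the lowest library for 5 of the 9 and for 13.4% of all genes, they ran lower, with Hbb-y at -0.78 and Hba-a1 at -0.72. Without mutant replicate 2 the values of Hba-a2 and Hbb-bs turned positive, to 0.13 and 0.04. Without control replicate 3, the library with yolk sac and liver endoderm transcripts, all 9 stayed below 0 and Hbb-y had -0.44. Hbb-bh1, Hbb-y, Hba-a1, Hbb-bt and Slc4a1 stayed below 0 in each of these fits. All 9 also stayed below 0 when both libraries of 1 number were left out and the number was a block, with medians of -0.09, -0.41 and -0.19 without numbers 1, 2 and 3. Control 1 also had the highest share of ribosomal protein reads, and the part of this in the globin levels was not tested.

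**Figure D2:**
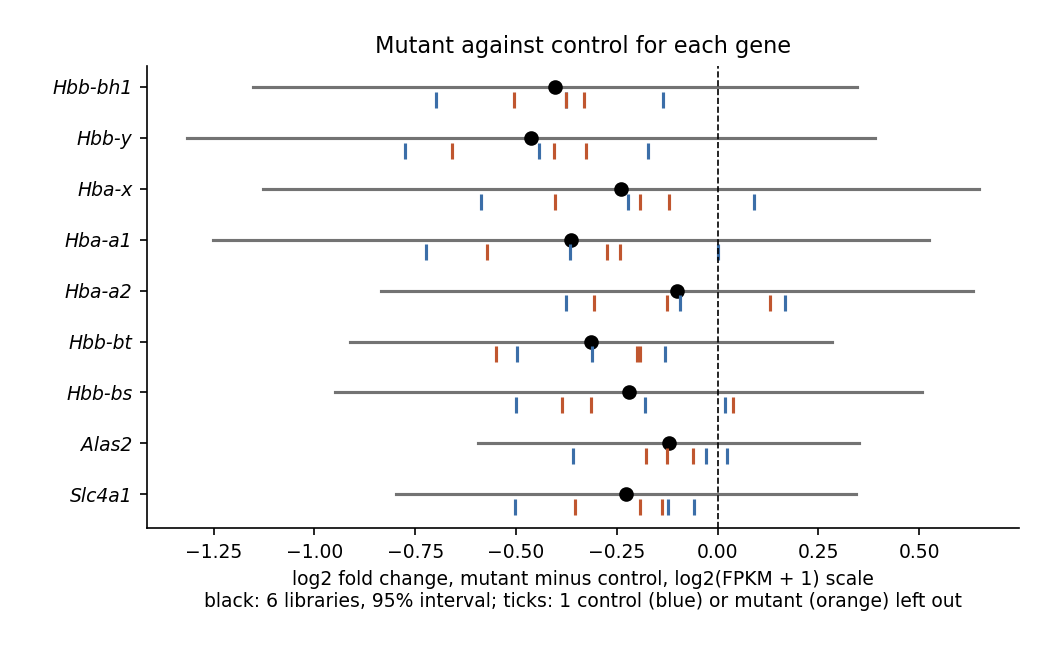
Log2 fold change of each gene, mutant minus control, on the log2(FPKM + 1) scale, with its 95% interval (grey) and the values when 1 control (blue ticks) or 1 mutant library (orange ticks) was left out. Each interval includes 0, and the blue ticks farthest apart, without control 1 and without control 2, span -0.17 to -0.78 for Hbb-y.

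Comparing libraries of the same replicate number narrowed the intervals without changing a call. Hbb-y, Hba-a2 and Hbb-bt were lower in the mutant in all 3 same-number pairs, which held for 25.1% of all genes tested, and the other 6 genes in 2 of 3. With the number as a block, limma gave no call among the 9 genes (adjusted p from 0.103 for Hbb-y to 0.579 for Alas2), while 5.12% of all genes passed (3.70% lower and 1.42% higher). At an unadjusted p under 0.05 the block gave 3 of the 9, Hbb-y, Hbb-bh1 and Hbb-bt, all lower in the mutant. Among all genes tested, 22.9% had such a p in either direction and 13.6% had it with mutants lower. A call appeared under 2 other fits with the block. Hbb-y passed by voom on the recovered reads (log2 fold change -0.42, adjusted p = 0.0206), where 9.39% of all genes passed, with adjusted p from 0.0206 to 1.00 over its 18 other settings. Hba-a1 passed when both libraries numbered 2 were left out (-0.64, adjusted p = 0.0473), where 2.24% passed, with adjusted p from 0.0473 to 1.00 over its 18.

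The ratio of embryonic to adult globins was nearly the same in both groups. Summed FPKM of Hbb-bh1, Hbb-y and Hba-x was 8.03, 9.21 and 9.003 times that of the 4 adult globins in controls 1, 2 and 3, and 8.05, 8.49 and 9.38 times in mutants 1, 2 and 3. Controls averaged 8.75 ± 0.63 and mutants 8.64 ± 0.68 (SD, n = 3 each), a difference of -0.02 in log2 of the ratio against SDs of 0.11 in each group. The embryonic genes made up 88.9% to 90.4% of the globin FPKM in every library. Such a ratio within a library does not depend on how many red cells the pool held. It is given without a test, as a sum over genes chosen with earlier results known.

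Nearly all adult globin came from the alpha-like chains. Within the alpha-like genes, Hba-x was 2.91, 3.09 and 3.11 times the sum of Hba-a1 and Hba-a2 in controls and 3.08, 3.18 and 3.61 times in mutants. Within the beta-like genes, Hbb-bh1 and Hbb-y together were 215, 208 and 203 times the sum of Hbb-bt and Hbb-bs in controls and 190, 234 and 143 times in mutants. The mutants spread wider than the controls in the beta-like ratio (SD 45.7 against 6.02), whose denominator rests on the few reads of Hbb-bt and Hbb-bs. Both ratios overlapped between the groups, and they differed in opposite directions, by 0.11 in log2 for the alpha-like and -0.17 for the beta-like genes.

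Among the embryonic genes, the ratio of Hbb-y to Hba-x did not overlap between the groups. Hbb-y was 1.04, 1.15 and 1.10 times Hba-x in controls 1, 2 and 3, and 0.978, 0.914 and 0.924 times in mutants 1, 2 and 3. The ratio averaged 1.10 ± 0.06 and 0.939 ± 0.03 respectively (SD, n = 3 each), a log2 difference of -0.22 with SDs of 0.07 and 0.05. All mutants lay below all controls. Of the 21 pairs that the 7 globins form, this happened in 3, against 13.6% of all pairs of tested genes above 0 in every library, the others being Hbb-y to Hba-a2 and Hbb-bt to Hba-a2. That share is near that of all pairs, and the pairs were looked at after the values were seen.

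The shares of the globin total are the same FPKM values over a common sum, and are no separate support. Hbb-y took 32.6%, 33.7% and 33.3% of the globin FPKM in controls and 32.4%, 29.9% and 30.8% in mutants. Hba-x took 31.4%, 29.3% and 30.2% in controls and 33.2%, 32.7% and 33.3% in mutants. Hbb-bh1 took 24.9% to 27.2% in controls and 23.4% to 26.8% in mutants, and Hba-a1 9.11% to 10.4% and 8.73% to 10.3%, both with overlap. The groups came nearest for Hbb-y at control 1 and mutant 1, the libraries with most ribosomal protein reads.

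**Figure D3:**
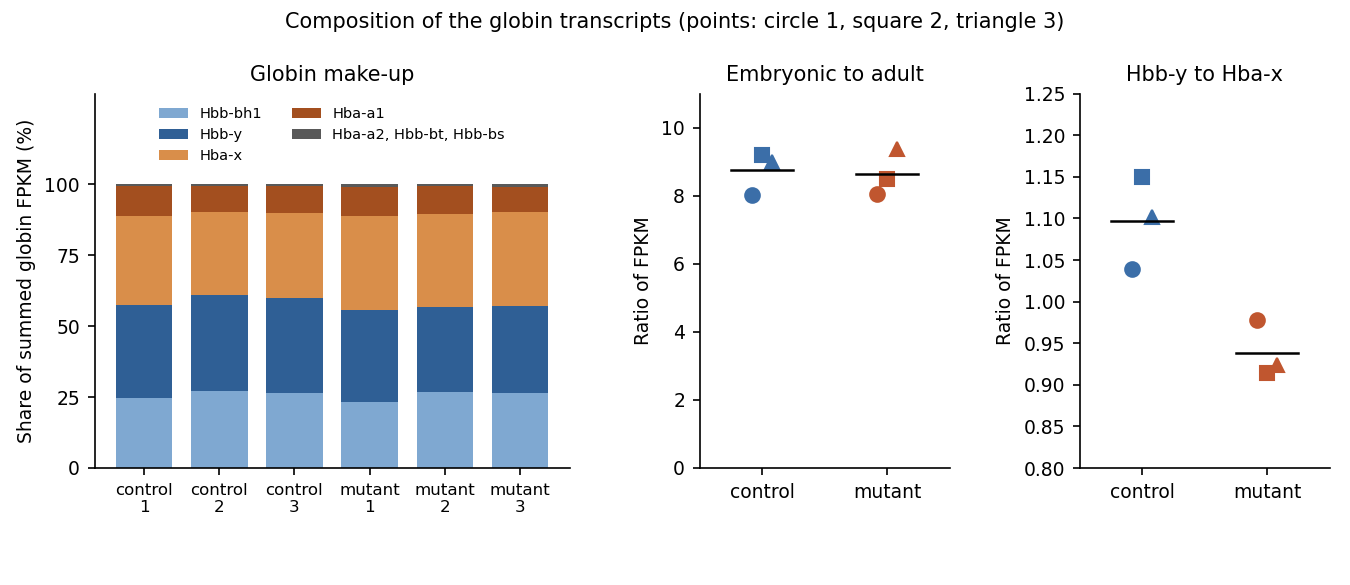
Left, share of each globin in the summed globin FPKM (percent) per library. Middle and right, the embryonic to adult ratio and the ratio of Hbb-y to Hba-x per library (circle, square and triangle for replicates 1, 2 and 3; black bar for the group mean; the right axis starts at 0.8). The embryonic to adult ratio overlaps between groups at 8.03 to 9.38, and the Hbb-y to Hba-x ratio is 1.04 to 1.15 in controls and 0.914 to 0.978 in mutants.

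Summed over chains, alpha-like globins were 0.731, 0.635 and 0.665 times the beta-like in controls and 0.783, 0.755 and 0.740 times in mutants, without overlap. These sums hold the same Hba-x and Hbb-y values as the ratio above and are no separate support. Of all pairs of single tested genes above 0 in every library, 13.6% had ratios without overlap, and no such share was computed for sums. By recovered reads the chain ratio was 1.03, 0.897 and 0.939 in controls and 1.10, 1.07 and 1.05 in mutants. The ratio of Hbb-bh1 to Hbb-y, which falls as primitive red cells mature, was 0.761, 0.805 and 0.795 in controls and 0.721, 0.898 and 0.854 in mutants. Mutants 2 and 3 lay above and mutant 1 below all controls. Relative to Alas2, summed globin was 572, 429 and 417 times in controls and 457, 373 and 367 times in mutants, and relative to Slc4a1 332, 243 and 204 against 307, 228 and 180 times. Both ratios overlapped between the groups and were highest in the libraries numbered 1.

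Globin reads took 0.256% to 0.557% of the reads in controls and 0.271% to 0.381% in mutants, which is the share of the 7 globins alone. Over the 6 libraries, Pearson correlations between pairs of the 9 genes on the log2(FPKM + 1) scale ran from 0.48 (Slc4a1 and Hbb-bt) to 0.98 (Hba-a1 and Hba-x), as a description, since the genes of a library share its red cells, depth and scaling. Slc4a1 alone was highest in control 3, as were 17.4% of all genes tested.

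Hbb-bh2 and Hbq1a had at most 0.581 and 0.360 FPKM, from at most 2 and 5 reads, and Hbq1b, a theta-globin gene, had 1.01 to 1.95 FPKM. The pseudogene Hbb-bh0, which lies between Hbb-bh1 and Hbb-y and is annotated over few bases, had 39.7 to 109 FPKM from 139 to 328 reads, above Hba-a2 in level and below it in reads. The myoglobin gene Mb, of the same superfamily, had 0.876 to 1.43 FPKM.

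Other red cell genes were read by list. In the heme synthesis list, 14 of 15 genes were tested, 12 had log2 fold changes below 0, the median was -0.13 (-0.25 without control replicate 2 and -0.09 without control replicate 3), and none passed with or without the block. Among those with the smallest p were Alas1, the housekeeping aminolevulinate synthase (7.78 and 6.83 FPKM in controls and mutants), Fech, the ferrochelatase that inserts iron (19.5 and 16.6), and Uros (6.02 and 5.47). In the iron list, with the transferrin receptor gene Tfrc at 21.7 and 20.1 FPKM and the ferritin gene Fth1 at 450 and 394, none of 9 passed in either fit and the median was -0.05, or between -0.11 and 0.00 when 1 library was left out (without control replicates 2 and 3).

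In the red cell membrane list, 18 of 19 genes were tested and 15 had values below 0, with a median of -0.18, or -0.06 without control replicate 3. In the fit without the block 0 passed and 2 were lower at unadjusted p under 0.05. With it, Tmod1 fell. Tmod1, a tropomodulin of red cells and also of heart muscle, was at 15.9, 15.96 and 21.5 FPKM in controls and 9.49, 8.23 and 13.5 in mutants (log2 fold change -0.73, limma adjusted p = 0.387 without the block and 0.00586 with it). The heart genes Tnnt2 and Actc1 also fell with the block, and the part of heart muscle in the Tmod1 values was not tested. Xk (1.30 and 0.93 FPKM), Mpp1 (3.08 and 2.57) and the glycophorin C gene Gypc (7.87 and 6.26) did not pass in either fit.

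Of the erythroid regulators 15 of 18 were tested, 12 had values below 0 and the median was -0.21, or -0.35 without control replicate 2 and -0.14 without control replicate 3. In the fit without the block 0 passed and 3 were lower at unadjusted p under 0.05. With it, Lmo2 fell, from 20.3 ± 2.55 to 13.3 ± 1.45 FPKM (SD, n = 3 each; log2 fold change -0.58, adjusted p = 0.23 without the block and 0.00541 with it). With the block, 1 to 4 regulators fell when both libraries of 1 number were left out (4 without number 2). Among all genes tested, 210 to 246 fell in those fits (229 of 12635 without number 2). In all 6 libraries the blocked voom fit called 4 of the 15 regulators lower and 2 higher, against 598 and 590 of 12650 genes. Lmo2 is a cofactor of the GATA and Tal1 complex in red cells and in endothelium. Gata2 (7.71 and 6.17 FPKM), Tal1 (6.48 and 5.02) and Zfpm1 (83.7 and 61.4) did not pass in either fit. Gata1 (3.36 and 2.71) and Klf1 (10.9 and 8.15), the regulators nearest to the globin genes, did not pass either. Bcl11a and Myb, known in definitive red cells for repressing embryonic globins, were at most 0.476 and 0.468 FPKM. Not all listed globin repressors were this low. Sox6 was at 1.04 to 1.77 FPKM and Zbtb7a at 4.77 to 6.03, and neither passed in either fit.

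Among further red cell enzymes and proteins 12 of 16 listed genes were tested, 0 passed in either fit and the median was -0.14, or -0.03 without control replicate 1, -0.26 without control replicate 2 and -0.09 without mutant replicate 2. The carbonic anhydrase gene Car2 (18.0 and 14.3 FPKM) was the 1 gene lower at unadjusted p under 0.05 without the block. Over these 5 lists without the 9 genes, 66 genes were tested, 54 (81.8%, against 52.1% of all genes) had values below 0 and the median was -0.13. In the fit without the block 0 passed, and 6 were lower (4.32% of all genes were) and 0 higher at unadjusted p under 0.05. With it 2 fell (3.03%, against 3.70% of all genes called lower with it).

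**Figure D4:**
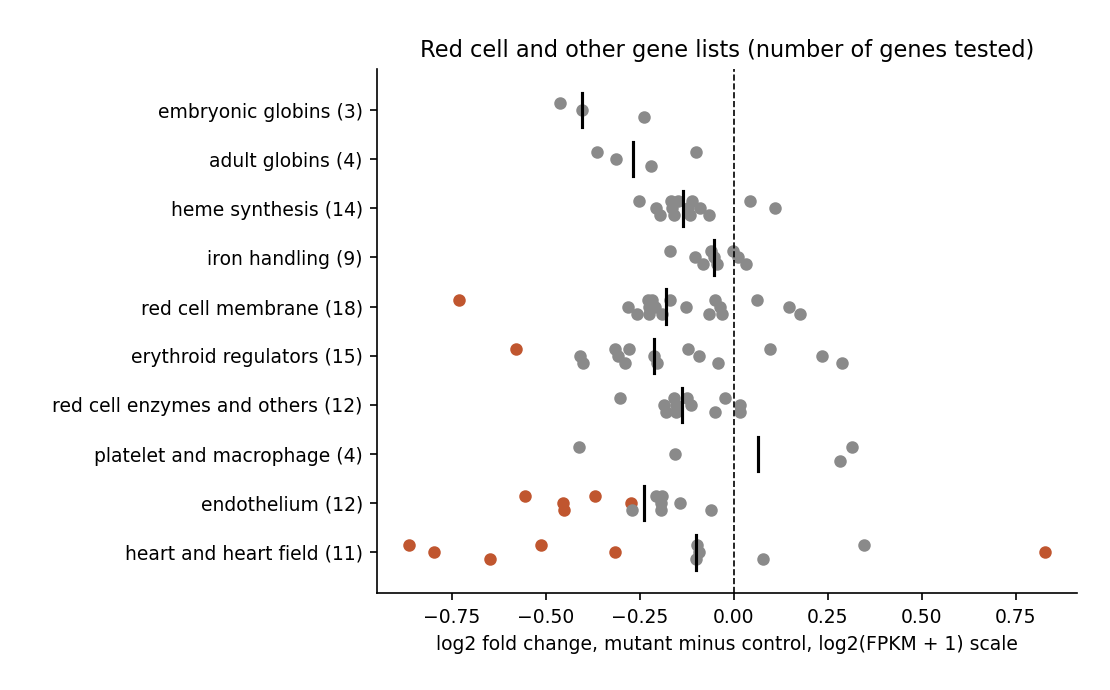
Log2 fold change, mutant minus control, of the tested genes of each list, with 1 point per gene, a black bar at the list's median and orange for genes with a limma adjusted p under 0.05 in the fit with the replicate block. The red cell lists have medians of -0.40 to -0.05 and 2 orange points, Tmod1 and Lmo2, and the heart and heart field list has 6 orange points.

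Other cell types of the pool were read beside these. The 12 endothelial genes, which line the vessels that hold the blood, all had values below 0 with a median of -0.24 and with Cdh5, the vascular cadherin gene, at 40.4 and 29.3 FPKM. In the fit without the block 0 passed and 5 were lower at unadjusted p under 0.05, against 4.32% of all genes, and 5 fell in the blocked fit, against 3.70%. Their summed level was 167 to 198 FPKM in controls and 133 to 157 in mutants, without overlap. Of all single genes tested, 6.85% had every mutant below every control. When both libraries of 1 number were left out, 2 to 3 of the 12 fell with the block. Over all genes, 246 of 12665, 229 of 12635 and 210 of 12632 fell without numbers 1, 2 and 3. The part of vessel content in the globin levels was not tested. Platelet and macrophage genes were near 0 in most cases, with 4 of 15 tested, a summed level of 8.81 to 15.2 FPKM in controls and 9.37 to 15.8 in mutants, and none past either fit (Cd68 was higher at an unadjusted p under 0.05). The pan-leukocyte gene Ptprc was at most 0.0122 FPKM. Adgre1, a macrophage marker, was listed at 0 in all controls and at most 0.0225 FPKM in mutants. Csf1r and Tyrobp of the same list were at most 0.449 and 0.557 FPKM, with every mutant below every control. None of these genes reached the mean required for testing. The yolk sac and liver endoderm list had a median of -1.56 over 10 genes with none past either fit or at an unadjusted p under 0.05, all highest in control 3. Without that library 5 of them were tested and the median was 0.05. In all 6 libraries the blocked voom fit called 9 of the 10 lower, against 598 of 12650 genes. Alb, the albumin gene of liver, was at most 0.0558 FPKM.

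By pattern over the 6 libraries, 453 of the 12650 genes tested (3.58%) had a Pearson correlation of at least 0.9 with the mean profile of the 9 genes on the log2(FPKM + 1) scale. That count was taken over all tested genes, with the 9 among them. Predicted genes, clones, small RNAs and pseudogenes were left out before the highest were named. The 10 highest outside the 9 were then Hdac5, Gde1, Bcl7b, Pofut2, Rabif, Rit1, Kif1c, Crip1, Dph2 and Gstm4, with correlations of 0.98 to 1.00. None of them was on a red cell list. Their highest library exceeded the lowest by 1.17 times in Rabif to 2.16 times in Crip1, whereas the 9 genes spanned 1.79 times (Alas2) to 2.76 times (Hbb-bt).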

How the data were processed

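The authors deposited a table of FPKM values, 1 column per library, matched to samples by title. Per the submitters' processing notes the tools were STAR 2.5.1b, Cufflinks 2.2.1 and bcl2fastq 2.18, with mm8 as the build and no roles stated. The sources used here give no annotation, strand setting or filter. Gene IDs were matched to symbols through a name table, which lacked 129 of them. FPKM times the exonic length of GENCODE M21 (GRCm38) stepped by 1 constant per library, so whole reads were recovered. The recovered lengths equalled that annotation for 20321 of 25759 genes, and for the other genes a common factor may be missing. Recovered lengths of Hbb-bh1 (614 against 613 bases), Hbb-y (661 against 633) and Hbb-bs (863 against 768) differ from it.

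Values of log2(FPKM + 1) were compared by limma 3.58.1 (R 4.3.3; two-sided, with a trend in the variance) for the 12650 genes that averaged 1 FPKM or more, with Benjamini-Hochberg adjustment over all of them at 0.05. Fold changes on this scale understate changes of low genes. Deviations of same-number libraries from their group means correlated at 0.73, 0.44 and 0.44, all over 0.1, so the numbers were taken to pair libraries; control 2 and mutant 3 also had 0.31. The pairing comes from the data, as the labels do not say what the numbers mean. Members, lists and tests were chosen with earlier results of these data known. The genes named from a list are those with the smallest p, up to 4. Fth1, Tfrc, Gata1, Klf1, Bcl11a, Myb, Sox6, Zbtb7a and the named genes of other cell types were chosen for their role. Some listed genes are not reported here.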

Additional observations from a re-analysis of the deposited data

How the results depend on the processing

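With all 6 libraries the 9 genes had a log2 fold change below 0 under every other setting (Hbb-bt was not tested at a mean of at least 5 FPKM), and the lowest and highest values with 1 library left out were -0.59 and 0.0899 for Hba-x, -0.38 and 0.17 for Hba-a2, -0.50 and 0.0373 for Hbb-bs and -0.36 and 0.0242 for Alas2. The median log2 fold change of all genes was -0.01, and 0.04 at most under another scaling. Counts over all genes, 3 higher and 19 lower, depended far more on the fit: 180 and 468 with the replicate block, 193 and 349 with array weights, 590 and 598 by voom with the replicate block (chosen after seeing the data), 5 and 3 without a filter, 11 lower at a mean of at least 5 FPKM and 9 lower after rescaling to equal sums. They were 0 to 2 higher and 0 to 2 lower without any 1 library (176 to 519 and 311 to 703 at an unadjusted p under 0.05), and 94 and 246, 54 and 229, and 80 and 210 with the replicate block and without both libraries numbered 1, 2 and 3 respectively. The cause was not tested. The log2 difference of the embryonic to adult ratio was -0.17 for beta-like and 0.11 for alpha-like chains alone, and -0.02 within replicate numbers. A quasi-likelihood count test was not run, because the deposited values are FPKM, and voom took its place. Depth is lowest for Hbb-bt, at 20 to 47 reads per library.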
